A study of Mus musculus with 4 samples.

Results

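Genes of cell proliferation were followed in mouse liver across 4 comparisons of a mutant line with wild type. The set was fixed by name as 10 genes: Ccnd1, Ccna2, Ccnb1, Mcm2, Mcm3, Mcm6, Pcna, Stmn1, Pttg1 and Top2a. Only probes annotated to a single gene were taken, and 6 of the 10 genes had such a probe, out of 9285 genes measured in all. Ccnd1 had 3 probes, and Ccna2, Mcm3, Pcna, Stmn1 and Pttg1 had 1 probe each, 8 probes in total. Ccnb1, Mcm2, Mcm6 and Top2a had no probe in the annotation used and were not analysed here.

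The livers came from male B6/FVB mice aged 7 to 8 weeks on a selenium-sufficient diet, and RNA of mutant and wild-type littermates was set against each other on 2-colour oligonucleotide arrays. DTrsp livers lacked Trsp, the gene of the selenocysteine tRNA. A34 livers carried 2 copies of a mutant tRNA transgene with a T34-to-A34 change, G37L livers 2 copies of an A37-to-G37 mutant, and G37H livers 16 copies of that A37-to-G37 mutant. In every comparison the other channel held Trsp, wild-type liver. The Cre driver or promoter, and whether the transgenic livers still had their own Trsp, are not stated in the labels used here.

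Each deposited value is the authors' average over biological replicates, per the labels over 3 animals for G37H and over 4 for each other line. With 1 value per probe and comparison there is no SD, interval or p-value, and no difference below could be set against a spread between animals. Values are read as log2 ratios with mutant liver (Cy5) on top and wild-type liver (Cy3) below. Only the dye labels give this direction, while the titles name wild type first, so it is likely but not certain, and turning it would change the sign of every value. Members at least 2-fold apart are therefore counted as a description, beside the share of all genes that pass the same threshold. Ratios say nothing of how abundant a transcript is, so no gene is called present or absent, and the labelled tissue could not be checked by marker level. In whole liver, fewer cells of a type and less RNA per cell cannot be told apart.

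Adult hepatocytes are mostly quiescent and re-enter the cell cycle after injury or loss of tissue. Mitogens raise cyclin D, which with its kinases inactivates the retinoblastoma proteins and frees E2F factors to switch on genes of DNA replication. Cyclin A then acts in S phase, and a later wave of genes serves mitosis, in which microtubules build the spindle and securin holds separase inactive until the sister chromatids part.

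The 6 measured genes did not move as a block. Both cyclin genes lay above 0 in all 4 lines as deposited, and each other gene changed sides between lines. In DTrsp the cyclins turned below 0, to -0.17 for Ccnd1 and -0.11 for Ccna2, when values were centred on ribosomal protein and oxidative phosphorylation genes. In DTrsp liver Stmn1 and Pttg1 were at least 2-fold higher than in wild type and Mcm3 at least 2-fold lower. In A34 liver Pttg1 was at least 2-fold lower. In G37L liver Ccnd1, Ccna2 and Mcm3 were at least 2-fold higher, and in G37H liver Ccnd1 and Ccna2. Pcna passed the threshold in none of the 4 comparisons.

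Set against all genes, these counts read as follows. In DTrsp, 2 of 6 members were at least 2-fold higher, where 3.27% of all genes were, and 1 of 6 at least 2-fold lower, where 1.62% were. In A34, 0 of 6 were at least 2-fold higher (1.4% of all genes) and 1 of 6 at least 2-fold lower (0.452% of all genes). In G37L, 3 of 6 were at least 2-fold higher (2.51% of all genes) and 0 of 6 at least 2-fold lower (3.96%). In G37H, 2 of 6 were at least 2-fold higher (2.78% of all genes) and 0 of 6 at least 2-fold lower (3.1%). The median log2 ratio of the members was 0.63 for DTrsp, 0.25 for A34, 0.53 for G37L and 0.44 for G37H, beside medians over all genes of 0.16, 0.07, -0.11 and -0.11. With 6 members that go opposite ways, these medians describe no single gene. The members were chosen with earlier results of these data known. Their shares beside those of all genes are therefore a description and no sign of enrichment.

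**Figure D1:**
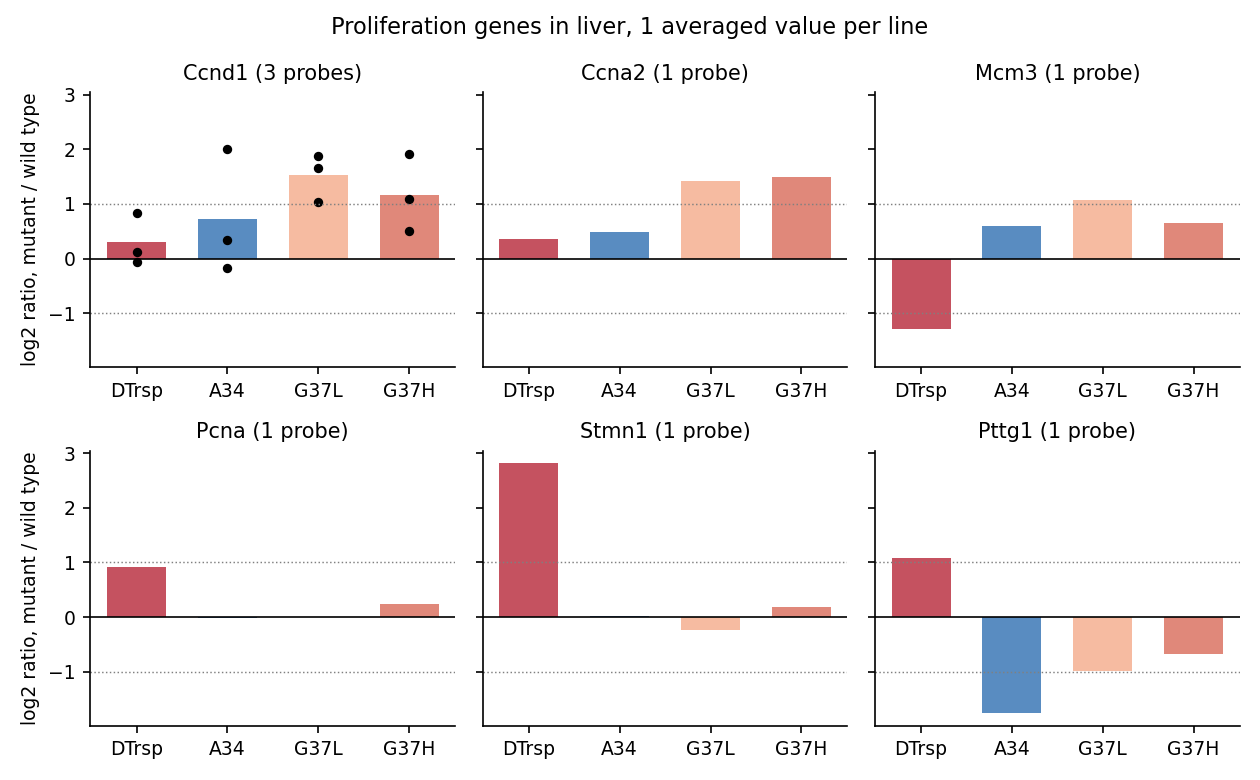
Log2 ratio of mutant over wild-type liver (vertical axis) for the 6 measured proliferation genes in DTrsp, A34, G37L and G37H (horizontal axis). Bars are gene values, black points the single probes of Ccnd1, and dotted lines mark 2-fold. Stmn1 is at 2.82 in DTrsp and between -0.25 and 0.18 in the other lines, Mcm3 is below 0 in DTrsp at -1.30 and above 0 in the other lines, and Pttg1 is above 0 in DTrsp at 1.07 and below 0 in the other lines.

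Ccnd1 encodes cyclin D1, the partner of Cdk4 and Cdk6 that links growth signals to entry into the cycle. Averaged over its probes, Ccnd1 had a log2 ratio of 0.30 for DTrsp, 0.73 for A34, 1.53 for G37L and 1.17 for G37H. The G37L value is 2.88-fold and the G37H value 2.25-fold above wild type. In this average both G37 lines lay above A34, and A34 above DTrsp, with no spread to set the gaps against.

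The 3 probes of Ccnd1, all annotated to the same transcript, did not give the same order of lines. The first read 0.13 for DTrsp, 2.01 for A34, 1.88 for G37L and 0.50 for G37H. The second read -0.06 for DTrsp, -0.16 for A34, 1.03 for G37L and 1.10 for G37H. The third read 0.83 for DTrsp, 0.34 for A34, 1.67 for G37L and 1.91 for G37H. All 3 probes were at least 2-fold higher in G37L, 2 of them in G37H and 1 in A34. The A34 average of 0.73 rests on the first probe, since the others lay at -0.16 and 0.34. In DTrsp all 3 stayed within 2-fold of wild type.

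Ccna2 encodes cyclin A2, which works in S phase and at entry into mitosis. Its probe read 0.35 for DTrsp, 0.48 for A34, 1.43 for G37L and 1.49 for G37H. The G37H and G37L values differed by 0.06 on the log2 scale, G37H minus G37L, although the lines carry 16 and 2 copies. Ccna2 was 2.80-fold above wild type in G37H and 2.69-fold in G37L. In G37H only 0.722% of all genes had a higher ratio than Ccna2, and in G37L 0.894%.

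Macrophage markers had medians above 0 in both G37 lines, where Ccna2 and the Ccnd1 average were highest, and in A34. In A34 only the first Ccnd1 probe lay above its DTrsp value, and Ccna2 was at 0.48 against 0.35 in DTrsp. Of 12 Kupffer cell and macrophage markers listed, 11 were measured. Their median was -0.11 for DTrsp, 0.70 for A34, 0.72 for G37L and 0.58 for G37H, and 1, 2, 3 and 2 of the 11 were at least 2-fold higher. Of all genes, 3.27%, 1.4%, 2.51% and 2.78% were, in the same order. Single markers ran between -0.59 and 1.02 in DTrsp, 0.15 and 1.12 in A34, 0.17 and 1.60 in G37L, and -0.35 and 1.56 in G37H. Mpeg1, a perforin-like protein of macrophages, was at 1.60 in G37L and 1.36 in G37H, and the complement receptor Vsig4 at 1.03 and 1.56. Hepatocyte markers also had medians above 0, over 8 genes 0.53 for DTrsp, 0.33 for A34, 0.66 for G37L and 0.66 for G37H. Of the 8, 1 lay below 0 in DTrsp, Trf at -0.67, and 2 in A34, Tat at -0.13 and Cps1 at -0.04. Tat and Cps1 were chosen after their values were seen. The part of either cell type in the cyclin values was not tested.

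Mcm3 and Pcna both act at the replication fork. Mcm3 is a subunit of the ring-shaped MCM helicase that unwinds DNA, and Pcna is the sliding clamp that holds DNA polymerases on their template. Both are textbook E2F targets. Their 300-base promoter windows are printed because the 2 genes lay on opposite sides of wild type in DTrsp, with that of Pttg1 beside them as the member that lay across wild type from Mcm3 in every line. Each runs from 250 bases before to 50 after a start site in RefSeq's GRCm38.p6 annotation, and 3 of the 6 measured members were in that table. Capitals mark the E2F core (TTTCGCGC, TTTGGCGC or TTTCCCGC), the CHR element (TTTGAA) and the CCAAT box (CCAAT), each searched on both strands. The Mcm3 window lies at chr1:20820263-20820562, minus strand, Pcna at chr2:132253131-132253430, minus strand, and Pttg1 at chr11:43425932-43426231, minus strand.
Mcm3: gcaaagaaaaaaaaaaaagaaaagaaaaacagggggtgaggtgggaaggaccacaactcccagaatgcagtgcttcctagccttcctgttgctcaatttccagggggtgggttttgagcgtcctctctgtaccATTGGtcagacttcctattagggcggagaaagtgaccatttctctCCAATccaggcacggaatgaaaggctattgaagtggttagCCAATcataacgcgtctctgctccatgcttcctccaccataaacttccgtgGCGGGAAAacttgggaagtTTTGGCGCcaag
Pcna: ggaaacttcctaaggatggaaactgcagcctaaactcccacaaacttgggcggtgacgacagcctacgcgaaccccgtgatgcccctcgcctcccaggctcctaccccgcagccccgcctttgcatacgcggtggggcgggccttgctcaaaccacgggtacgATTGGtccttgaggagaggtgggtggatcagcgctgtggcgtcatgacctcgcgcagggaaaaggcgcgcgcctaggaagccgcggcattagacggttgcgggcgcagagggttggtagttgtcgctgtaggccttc
Pttg1: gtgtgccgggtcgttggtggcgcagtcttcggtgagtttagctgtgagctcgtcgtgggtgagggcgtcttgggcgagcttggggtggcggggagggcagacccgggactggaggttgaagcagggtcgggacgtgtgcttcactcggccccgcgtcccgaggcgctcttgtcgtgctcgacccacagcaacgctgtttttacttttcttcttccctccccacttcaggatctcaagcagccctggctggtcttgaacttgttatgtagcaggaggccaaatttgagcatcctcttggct

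The Mcm3 window held 2 E2F cores, beginning at bases 20 and 39 counted from the start site as base 1, and 3 CCAAT boxes. The Pcna window held 1 CCAAT box and neither of the other motifs in these letters. No searched form occurred in the Pttg1 window. That window lies inside the gene, which spans 43420244 to 43427463 on chromosome 11, minus strand. The bases before the gene's outermost start were therefore not searched. Among all 32851 promoters of the table, 1.84% held an E2F core, 17.9% a CHR element and 37.4% a CCAAT box. A match describes letters only, and its absence says nothing about binding.

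Mcm3 had a log2 ratio of -1.30 for DTrsp, 0.59 for A34, 1.07 for G37L and 0.65 for G37H. DTrsp was the single line below 0, at 2.46-fold under wild type, and only 40 of 9285 genes lay lower there. In G37L it was 2.10-fold above wild type. The span of 2.37 between G37L and DTrsp was exceeded by 1.45% of all genes, and the median span over the 4 lines was 0.77. When values were centred on ribosomal protein and oxidative phosphorylation genes, Mcm3 in G37L was at 0.91 and no longer 2-fold higher.

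Pcna read 0.91 for DTrsp, -0.02 for A34, -0.01 for G37L and 0.23 for G37H. In DTrsp, where Mcm3 was lowest, Pcna was 1.88-fold above wild type, with 4.33% of all genes higher. In the transgenic lines the value farthest from wild type was 1.17-fold, in G37H.

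The other measured MCM genes lay apart from Mcm3 in DTrsp and G37L and nearer to it in A34 and G37H. Mcm4, Mcm5 and Mcm7 encode further subunits of the helicase ring, and Mcm10 a separate replication factor. In DTrsp they were at 0.28 for Mcm4, 0.82 for Mcm5, 0.03 for Mcm7 and 0.12 for Mcm10, against -1.30 for Mcm3. In G37L they were at -0.74, -0.54, -0.57 and -0.04 in the same order, against 1.07 for Mcm3. Mcm7 and Mcm10 were chosen after their values were seen. In A34 they were at 0.34, 0.31, 0.02 and 0.25, against 0.59 for Mcm3, all above 0. In G37H they were at 0.46, 0.57, -0.09 and 0.03, against 0.65 for Mcm3. As deposited, Mcm3 thus lay across wild type from Mcm4 and Mcm5 in DTrsp, with Mcm7 close to 0, and from Mcm4, Mcm5 and Mcm7 in G37L. In DTrsp the sides depend on centring. Ribosomal protein and oxidative phosphorylation genes had a median of 0.46 there, above Mcm4 and Mcm7 and below Mcm5. Mcm3 rests on 1 probe.

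**Figure D2:**
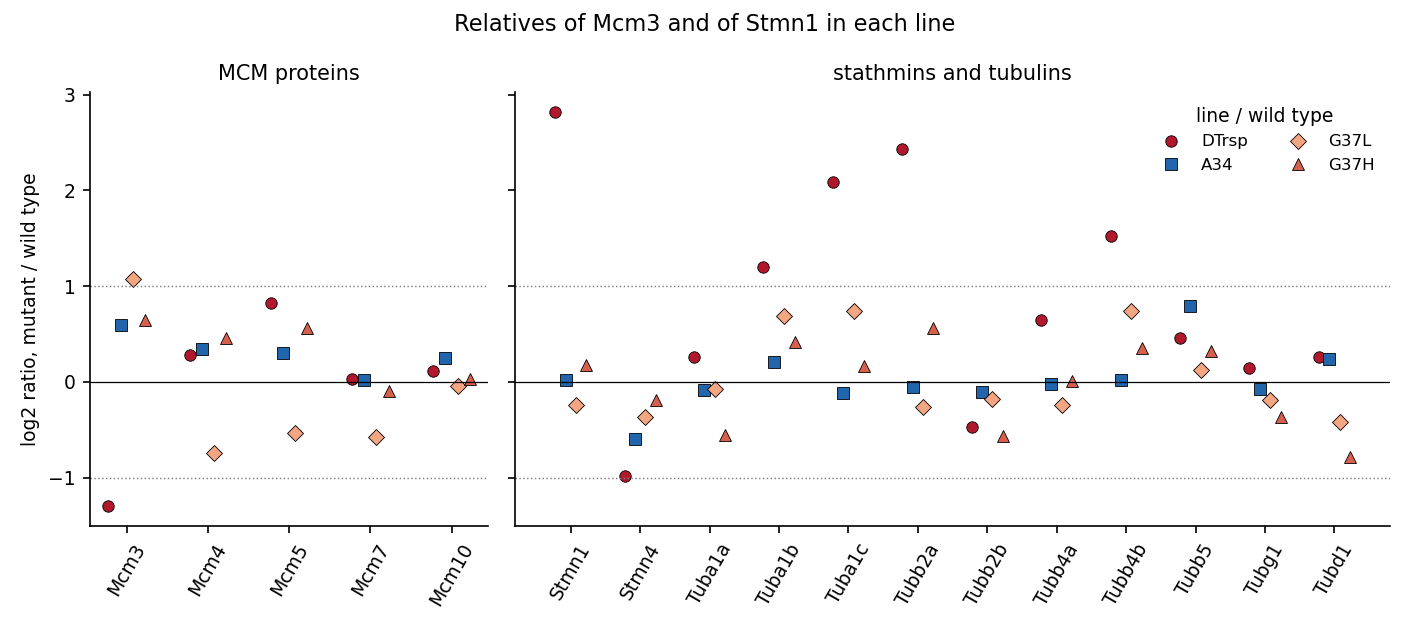
Log2 ratio of mutant over wild type (vertical axis) for measured MCM genes (left) and for stathmins and tubulins (right), with 1 marker per line and dotted lines at 2-fold. Mcm3 lies apart from Mcm4, Mcm5, Mcm7 and Mcm10 in DTrsp and in G37L, and Stmn1, Tubb2a, Tuba1c, Tubb4b and Tuba1b are at least 2-fold higher in DTrsp.

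Stmn1 encodes stathmin, a small protein that binds tubulin and promotes the shortening of microtubules, and whose phosphorylation lets the mitotic spindle form. It had the largest ratio of the 6 members in any line, 2.82 in DTrsp, or 7.07-fold above wild type. In the other lines it read 0.02 in A34, -0.25 in G37L and 0.18 in G37H. Only 5 of 9285 genes were higher than Stmn1 in DTrsp. The span of 3.07 between DTrsp and G37L was exceeded by 0.485% of all genes. Centred on ribosomal protein and oxidative phosphorylation genes, Stmn1 in DTrsp was at 2.36.

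Some tubulin genes were also high in DTrsp. Of 28 genes other than Stmn1 listed as stathmins, tubulins and microtubule proteins, 20 were measured. In DTrsp 4 of them were at least 2-fold higher and 0 were lower by that much, beside 3.27% and 1.62% of all genes. These were Tubb2a at 2.43, Tuba1c at 2.09, Tubb4b at 1.52 and Tuba1b at 1.20, the last chosen after its value was seen. The list median was 0.65, or 0.49 above that of all genes. In the transgenic lines A34, G37L and G37H the list had 0 genes past 2-fold in either direction and medians of 0.03, -0.13 and 0.05. The whole-array shares past that threshold were 1.4%, 2.51% and 2.78% upward in the same order, and 0.452%, 3.96% and 3.1% downward. With only 20 genes in the list, counts of 0 do not set these lines apart from that background. Stmn4, a relative of stathmin known from neurons, was at -0.98 in DTrsp. Other tubulins lay lower, with Tubb2b at -0.48 and both its probes below 0, Tubg1 at 0.14, and Tuba1a and Tubd1 at 0.26. These 4 were chosen after their values were seen. Tubb5 averaged 0.46 there over probes that read -0.47 and 1.39. Tubulin genes are much alike, and their probes may not tell them apart.

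Pttg1 encodes securin, the inhibitor that keeps separase from cutting cohesin before anaphase. It read 1.07 for DTrsp, -1.76 for A34, -0.99 for G37L and -0.68 for G37H. DTrsp was the single line above 0, at 2.10-fold over wild type. In A34 it was 3.39-fold below wild type, and 2 of 9285 genes lay lower. G37L, at 1.99-fold below, was just short of the threshold, and G37H was 1.60-fold below. The DTrsp call depends on centring, since the value was 0.91 relative to the median of all genes and 0.61 relative to ribosomal protein and oxidative phosphorylation genes. On that last centring G37L was at -1.15, past the threshold.

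Genes that act with securin showed other patterns. The list of cohesin, condensin and separase genes had 10 of 16 measured, without the separase gene Espl1. In DTrsp 1 was at least 2-fold higher, the cohesin subunit Rad21 at 1.26, and 0 were lower by that much. Of all genes, 3.27% and 1.62% were. The cohesin subunit Smc3 averaged -0.73 in DTrsp, and Pttg1ip, a protein that binds securin, was at 0.53. The list median in DTrsp was -0.01, with 5 genes above 0 and 5 below. In G37L the condensin subunit Ncapd2 was at 1.04. In A34, where Pttg1 was lowest, the list had 0 genes past 2-fold and a median of 0.05. Among all genes, 1.4% were higher and 0.452% lower by that much in A34.

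**Figure D3:**
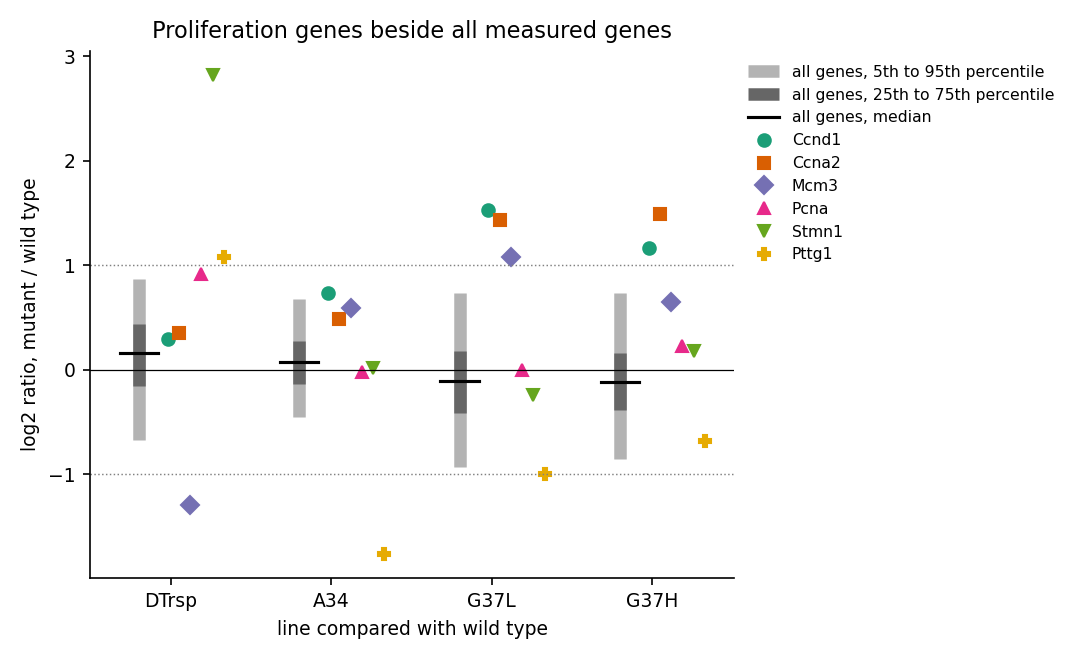
Log2 ratio of mutant over wild type (vertical axis) for the 6 members, as coloured markers, beside the spread of all 9285 genes, as grey bars, in each line. The members on the far side of the 5th to 95th percentile bars are Mcm3, Pcna, Stmn1 and Pttg1 in DTrsp, Ccnd1 and Pttg1 in A34, and Ccnd1 and Ccna2 in both G37 lines, with Mcm3 and Pttg1 as well in G37L.

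Some of these averages rest on fewer arrays than labelled, as the decimals of the values show. An average over 4 arrays cannot end on 1/3 of the 4-decimal step, as the Stmn1 value in A34 did. An average over 3 arrays cannot end on 1/2 of it, as the Mcm3 value in G37H did. A value with no such fraction may stem from 1 array, or from several by coincidence. Of 32 member probe values 12 had none, among them Stmn1 in DTrsp, G37L and G37H, Mcm3 in G37L, Pcna in DTrsp and G37L, and the first Ccnd1 probe in A34. Over all probes the share without a fraction was 29.8% for DTrsp, 30.7% for A34, 37.8% for G37L and 43.5% for G37H.

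Other genes of the cycle were read from 8 lists that together name 194 genes, of which 110 were measured. In DTrsp 7 of the 110 (6.36%) were at least 2-fold higher and 0 lower, with a median of 0.23, beside 3.27% and 1.62% of all genes. Of these 7, 4 were the tubulin genes named above, since the microtubule list is 1 of the 8. The others were Rpa1, Hmgb2 and Rad21. In A34 0 of the 110 were past 2-fold in either direction, with a median of 0.02, beside 1.4% and 0.452% of all genes. In G37L 2 (1.82%) were at least 2-fold higher and 4 (3.64%) lower, with a median of -0.27, beside 2.51% and 3.96% of all genes, so these shares were near the background. In G37H 1 (0.909%) was at least 2-fold higher and 3 (2.73%) lower, with a median of -0.16, beside 2.78% and 3.1% of all genes. In G37L the median of these genes, at -0.27, lay below that of all genes, at -0.11. In G37H the medians were close, at -0.16 and -0.11. Ccnd1 and Ccna2 lay far above these medians in both G37 lines.

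The list of cyclins, their kinases and kinase regulators, without the members Ccnd1 and Ccna2, had 11 of 19 measured. None of these 11 was at least 2-fold higher in any line. Wee1, a kinase that restrains entry into mitosis, was the single gene of the list at least 2-fold lower, at -1.06 in G37L. There 3.96% of all genes were lower by that much. Wee1 was at 0.55 in DTrsp and 0.39 in A34. Ccne1, the cyclin that follows cyclin D, was at 0.62 in DTrsp and 0.45 in A34. Cdk2, the partner of cyclins E and A, was at -0.45 in G37L and -0.42 in G37H, where Ccna2 was at 1.43 and 1.49. The 2 Cdk2 probes differed, at -0.86 and -0.04 in G37L and at -0.67 and -0.16 in G37H.

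Inhibitors of cyclin-dependent kinases and pocket proteins had 7 of 13 measured. In G37H Cdkn1a, the p21 inhibitor, was at 2.17, with probes at 1.90 and 2.44. Cdkn1c, a related inhibitor, was at -1.08 in that line. In G37L Cdkn1a was at -0.66 and the pocket protein gene Rbl2 at -0.97. Ccnd1 was at least 2-fold higher in both lines. In DTrsp and A34 the list had 0 genes past 2-fold. Among all genes, 3.27% were higher and 1.62% lower by that much in DTrsp, and 1.4% and 0.452% in A34.

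E2F factors and their DREAM complex partners had 8 of 17 measured. The list median in DTrsp was 0.60, or 0.44 above that of all genes, with 7 of the 8 above 0. E2f1, an activator of replication genes, was at 0.71 in DTrsp, and E2f4, a repressor, at 0.75 in A34. In G37L, Lin54 was at 1.12 and Lin37 at -1.14, both subunits of the DREAM complex. Lin54 was above 0 in all lines, at 0.92 in DTrsp, 0.60 in A34 and 0.97 in G37H.

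The replication licensing and fork list had 27 of 45 genes measured. In DTrsp Rpa1, which coats single-stranded DNA, was the single gene at least 2-fold higher, at 1.13, followed by Gins4 of the helicase complex at 0.96. In G37L Gins1 of the same complex was at -1.56 and Gmnn, which blocks relicensing, at -1.32, the 2 genes at least 2-fold lower. Among all genes, 3.27% were at least 2-fold higher in DTrsp and 3.96% at least 2-fold lower in G37L. Mcm3 was above wild type in G37L at 1.07, while the list median there was -0.31. In A34 the polymerase subunit Pole4 was at -0.93, and in G37H at 0.87.

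Genes of nucleotide supply and S phase chromatin had 12 of 17 measured. Hmgb2, a chromatin protein abundant in dividing cells, was at 1.37 in DTrsp. Dnmt1, the maintenance DNA methyltransferase, was at -1.21 in G37H and -0.89 in G37L. Chaf1b, of the chromatin assembly complex, was above 0 in DTrsp at 0.81, in A34 at 0.98, in G37L at 0.57 and in G37H at 0.84.

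Mitosis and cytokinesis genes had 15 of 39 measured, with 0 at least 2-fold higher in any line. Their medians were 0.15 for DTrsp, -0.02 for A34, -0.32 for G37L and -0.35 for G37H. Kif22, a chromosome-bound motor, was the single gene at least 2-fold lower, at -1.21 in G37H. In DTrsp the motor Kif4 was at -0.84 and the cytokinesis protein Anln at 0.84. Several common markers of dividing cells, Mki67 among them, had no probe here.

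**Figure D4:**
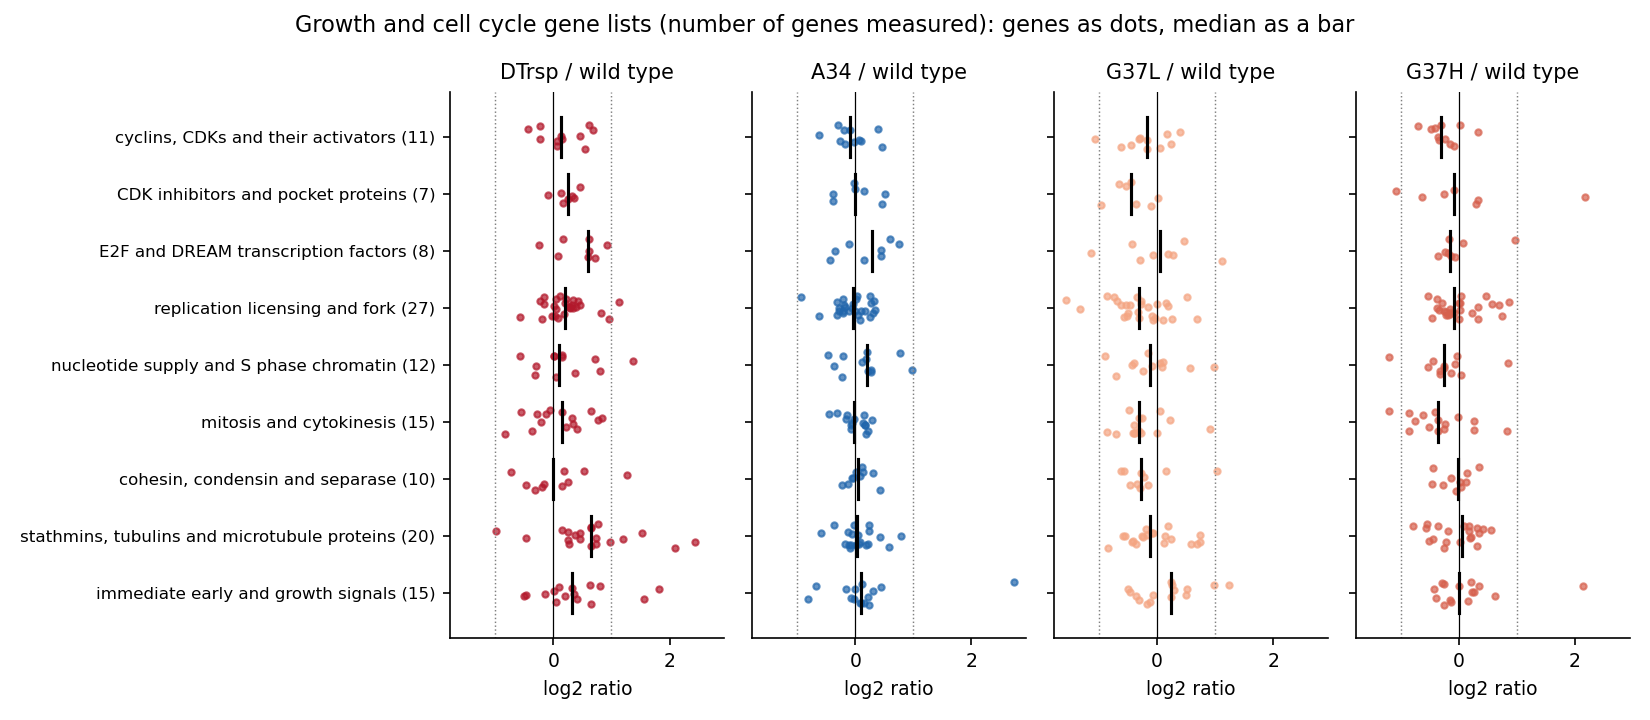
Log2 ratio of mutant over wild type (horizontal axis) for genes of 9 growth and cell cycle lists (rows, with the number measured), 1 panel per line, dots for genes, black bars for medians and dotted lines at 2-fold. Most genes lie within 2-fold of wild type. In DTrsp the microtubule list, with a median of 0.65, and the E2F and DREAM list, with 0.60, are shifted to the right.

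Markers of cells other than hepatocytes were compared in the same way. In DTrsp, where Stmn1 was highest, the erythroid globin genes Hbb-b1 and Hba-a1 were at 1.37 and 1.13, 2 of 5 measured erythroid markers, while Klf1 was at -0.48 and Alas2 at -0.15. Stellate cell and fibroblast markers had a median of -0.46 over 8 genes in DTrsp, and endothelial markers 0.53 over 8. T and NK cell markers had 3 of 11 measured, with medians of 0.30 for DTrsp, -0.01 for A34, -0.60 for G37L and 0.14 for G37H. In A34 the immunoglobulin gene Ighm, the single B cell marker measured, was at 2.67. Neutrophil markers had 2 of 7 measured, with a median of 0.85 in G37L, and cholangiocyte markers 2 of 7, with a median of 0.45 in A34. The part of these cells in the member values was not tested.

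For each member, the genes with the closest ratios over the 4 lines were found by Euclidean distance after centring each column on its median. This distance rests on 4 averaged values and all genes share the same arrays. Stmn1 lay nearest to Ugdh, which makes the sugar donor for glucuronidation, at a distance of 0.46, then to Tubb2a at 0.55 and the glutathione transferase Gsta4 at 0.73. In DTrsp these 3 were at 2.62, 2.43 and 3.04. Ccnd1 lay nearest to Tex46, at 0.34, and to the lysosomal proteases Ctsc and Ctss, at 0.36 and 0.37. Ccna2 lay nearest to the cytochrome P450 gene Cyp2c70, at 0.22, then to Prl2a1 at 0.26 and Vsig4 at 0.46. Pcna had the closest neighbours, Skp1 of a ubiquitin ligase at 0.07, Fcf1 at 0.09 and Abhd3 at 0.14. Mcm3 lay 0.47 from Krt76, 0.62 from Zfp385c and 0.66 from the muscle gene Ttn. Pttg1 had no gene closer than Hsdl2 at 1.01, followed by the centrosome gene Cep85 at 1.02 and Xdh at 1.04.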

How the data were processed

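Liver RNA of 4 mutant lines was compared with wild type on 2-colour arrays, 1 column per comparison and no replicate columns. The deposited values are log2 ratios averaged over animals by the authors, per the labels; the log base, background correction, normalization, spot filter and dye swaps are not stated in the labels used here, and log2 is a reading of the values. Of 15478 probes, 12984 got a symbol by the annotation's gene identifier and 63 kept its own symbol; 110 with several genes and 2321 not listed were left unnamed. Symbols came from GRCm38.p6 (RefSeq). Probes of a gene were averaged (pandas 2.3.3, Python 3.11.15), giving 9285 genes. No test was possible with 1 value per comparison; counts use a log2 threshold of 1. The number of arrays limits the precision. Named genes are all members, the 3 genes of each list with the largest absolute ratio in a comparison, and the 3 nearest genes of each member; exceptions are said. Members and lists were chosen with earlier results of these data known. Counting was tested on simulated data. Comparing the members' proteins was planned but not done, as no protein sequences were used here.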

Additional observations from a re-analysis of the deposited data

Results flagged for a closer look

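Mcm3 was at least 2-fold higher in G37L liver, at 1.07, and at least 2-fold lower in DTrsp liver, at -1.30, both against wild type. Pttg1 was at least 2-fold higher in DTrsp liver, at 1.07, and at least 2-fold lower in A34 liver, at -1.76. Each was picked out because the 2 lines lay on opposite sides of wild type. The difference between lines was not tested, since each line is 1 averaged value. Of all 9285 genes, 75 (0.808%) were at least 2-fold higher in 1 line and at least 2-fold lower in another.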

How the results depend on the processing

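Every comparison is 1 averaged value per gene, so no animal could be left out. No paired analysis was possible because the columns carry no replicates. Of 120 recomputed member values, 114 moved by less than 1.5 times, 6 by more, and 0 values past 2-fold changed sign. Much of this was fixed by the settings. Centring shifted all genes of a line by the same amount, at most 0.46, which is less than 1.5 times. Taking the median of probes could alter only Ccnd1, and neither scaling nor the log base can change a sign. These counts therefore say little about how stable the values are. Below 2-fold, centring on ribosomal protein and oxidative phosphorylation genes turned Ccnd1 and Ccna2 in DTrsp to -0.17 and -0.11, and Stmn1 in A34 to -0.13. Centring on the median of all genes put Stmn1 in A34 at -0.052 and Pcna in G37L at 0.11. All member medians moved by less than 1.5 times, but over members with 1 probe the median was -0.01 in G37L and 0.02 in A34. In DTrsp the count of 2 members at least 2-fold higher became 1 after centring on the median of all genes, 1 after centring on 146 ribosomal protein and oxidative phosphorylation genes and 1 at 3-fold, and the 1 lower became 0 at 3-fold. In A34 the 0 higher became 1 with probes counted singly, 1 after scaling to the median absolute deviation of DTrsp, 1 read as natural logarithms and 2 at 1.5-fold. In G37L the 3 higher became 5 with probes counted singly and 0 at 3-fold, and the 0 lower became 1 after centring on ribosomal protein and oxidative phosphorylation genes, 1 read as natural logarithms and 1 at 1.5-fold. In G37H the 2 higher became 0 at 3-fold, and the 0 lower became 1 at 1.5-fold. Over all genes, at 2-fold, the counts of 304 higher and 150 lower in DTrsp ranged from 81 to 950 and from 150 to 759, and those of 130 and 42 in A34 from 84 to 448 and from 43 to 154. The counts of 233 and 368 in G37L ranged from 160 to 512 and from 253 to 1030, and those of 258 and 288 in G37H from 187 to 536 and from 182 to 827. The balance of directions over all genes is therefore not settled. The cause of these changes was not tested beyond what each setting itself does.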

Other observations

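Growth signals and immediate early genes, which act upstream of the cyclins, differed between the lines. Of 25 genes listed, 15 were measured. In DTrsp 2 were at least 2-fold higher, Tgfa, a growth factor for hepatocytes, at 1.82 and the transcription factor Myc at 1.56. Of all genes, 3.27% were at least 2-fold higher there. In A34 the immediate early factor Egr1 was at 2.73, Ccn2 at -0.82 and Myc at -0.68. In G37L Egr1 was at 1.25 and Myc at 0.99, just short of 2-fold. In G37H Myc was at 2.14, Hgf at 0.62 and Igf1r at -0.43. List medians were 0.32 for DTrsp, 0.09 for A34, 0.24 for G37L and -0.00 for G37H, and 0 genes of the list were at least 2-fold lower in any line.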
